A study of Rattus norvegicus with 10 samples.

Results

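Glul, Slc13a3, Tbx3, Lgr5, Axin2, Oat, Rhbg, Slc1a2, Cyp2e1 and Rgn are genes of hepatocytes that lie next to the central vein of the liver lobule, and several of them are targets of Wnt signalling. They were taken as a set of 10 gene symbols, chosen with earlier results of these data known, with every probe set annotated to 1 of them alone. Of the 10 genes 9 were measured, through 15 of the 31042 non-control probe sets and as 9 of 14217 named genes. Rhbg, an ammonia transporter, was not analysed here because no probe set used here is annotated to it.

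RNA of 10 samples of liver, from female rats of the Harlan Sprague-Dawley stock, was hybridised to rat whole-genome 3' expression arrays. The dosed group (n = 5) received indole-3-carbinol, which cruciferous vegetables release when cut or chewed, in corn oil by gavage, at 300 mg/kg. The vehicle group (n = 5) received corn oil by gavage, which the labels give as 0 mg/kg of the compound. Both groups were gavaged 5 days per week, and the labels give 13 weeks for both, whereas the series' design text names a 2 year study. The sources used here do not give the age of the rats. The design compares liver transcripts with and without the compound.

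Blood enters the liver lobule at the portal tract and leaves at the central vein, and hepatocytes carry out different tasks along that path. Endothelial cells of the central vein release Wnt ligands and R-spondins, which stabilise beta-catenin in the hepatocytes around them and so sustain a pericentral programme. A narrow pericentral layer makes glutamine from ammonia that has escaped the periportal urea cycle. Pericentral hepatocytes are also the main site of many cytochrome P450 enzymes.

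The labelled tissue carried its defining transcripts: all 6 measured of 7 hepatocyte markers lay above the median level of all probe sets, and their summed level (the sum of the linear values, as log2) was 17.00 to 17.06 in vehicle and 17.03 to 17.07 in dosed arrays. The median log2 value of an array lay between 6.21 and 6.29, and precision is limited by there being 5 arrays in a group. Vehicle 5 stood apart, since its highest correlation with any other array was 0.988, whereas every other array reached at least 0.994. RNA quality was read from the GAPDH control transcript, as the level of its 3' probe set minus that of its 5' probe set (the GAPDH difference). It was 0.32 to 0.65 in vehicle and 0.16 to 0.29 in dosed arrays, with no overlap (exact permutation test, two-sided, p = 0.00794, the smallest that 5 against 5 arrays can give). The same measure of beta-actin ran from 1.45 to 1.74 over the vehicle arrays and from 1.17 to 1.53 over the dosed ones (exact permutation test, two-sided, p = 0.0476). Vehicle 5 had the highest GAPDH difference, 0.65. Because the GAPDH difference separates the groups, a fit that holds it as a covariate cannot tell its part from that of the compound. Beyond such fits, the part of either measure in the members' differences was not tested.

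Between dosed and vehicle livers 4 of the 9 measured members fell (Slc13a3, Glul, Rgn and Cyp2e1), 1 rose (Tbx3) and 4 did not pass the test (Oat, Slc1a2, Lgr5 and Axin2). Each gene is read here through its brightest probe set, by the mean of the 10 arrays. For Tbx3 that choice rests on the dosed arrays, since in vehicle arrays a probe set that did not pass was brighter. The count of Tbx3 as risen and without overlap thus depends on it. For Glul the choice rests on the vehicle arrays, since in dosed arrays another probe set, also called lower, was brighter (10.95 against 10.87). "Fell" and "rose" mean an adjusted p under 0.05 in limma, adjusted by Benjamini-Hochberg over all 31042 probe sets. Of all 14217 genes 3.11% fell and 3.32% rose by the same rule, 6.43% in all. Members and the lists below were chosen with earlier results of these data known, so these shares are a background and not a test. Nor are the shares matched for level: 8 of the 9 members lay above the median level of all probe sets. The differences ran from -1.66 for Slc13a3 to 0.92 for Tbx3 on the log2 scale, and the median over the 9 genes was -0.30, beside 0.00 over all genes. By probe set, 5 of the 15 were lower, 2 higher and 8 did not pass, against 2.3% lower and 2.49% higher among all probe sets. The groups did not overlap in 4 of the 9 genes, against 8.67% of all genes. Of the 3 members with more than 1 probe set (Glul, Tbx3 and Slc1a2) 2 had at least 1 called, against 10.2% of all such genes. In the fit with the GAPDH difference as a covariate 1 member gene was called lower, Slc13a3, where 0.802% of all genes were called lower and 1.6% in either direction. With the beta-actin measure in its place 2 member genes were called lower, Slc13a3 and Glul, and Tbx3 was called higher. The share of all genes called in the beta-actin fit was not computed, so these calls have no background beside them. RNA of whole liver was measured, so that fewer pericentral hepatocytes and less RNA per cell cannot be told apart.

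**Figure D1:**
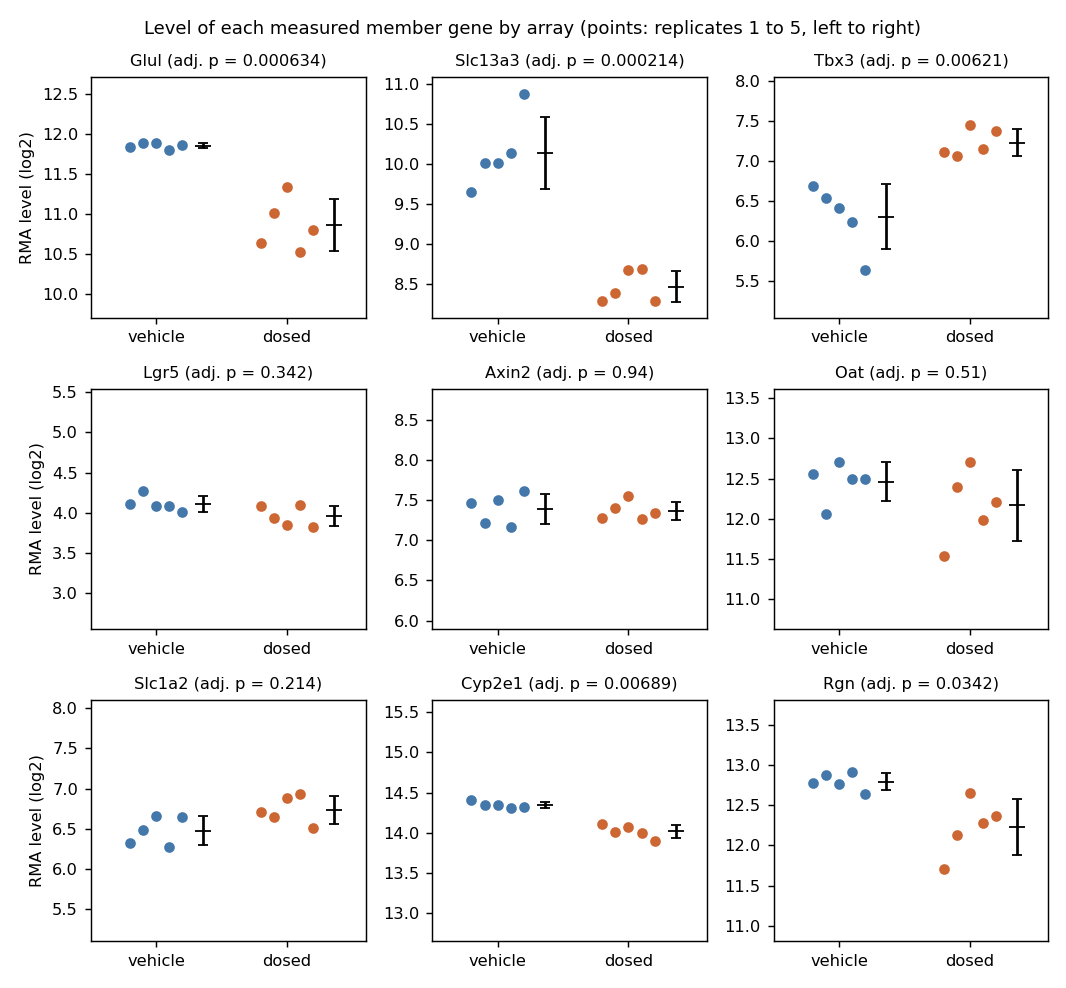
RMA level on the log2 scale (y axis, 3 log2 units in every panel) of the 9 measured members in the 5 vehicle and 5 dosed arrays, through each gene's brightest probe set. Points are arrays and the bar beside them is the mean ± SD. The groups of Glul, Slc13a3, Tbx3 and Cyp2e1 do not overlap, those of the other 5 genes do.

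The windows before the transcription starts show how the members differ in sequence. Windows of 250 bases upstream of the start, from RefSeq on build GRCr8, were found for 8 of the 10 genes, 10 windows in all, since Glul and Slc1a2 have more than 1 start. Tbx3 and Lgr5 are not shown. Each window was searched on both strands for CTTTGA, the core letters bound by the TCF and LEF factors of Wnt signalling, and for GCGTG, the core letters bound by the aryl hydrocarbon receptor, which indole-3-carbinol products are known to activate. Neither motif contains the other. The first motif was in 4 of the 10 windows, 1 each of Glul, Axin2, Slc1a2 and Cyp2e1, and in 13.9% of all 33469 windows of this length. The second was in 1, of Slc1a2, and in 25.9% of all windows. A match is a description and not a site of binding.
Shown are both windows of Glul and those of Cyp2e1 and Slc13a3, which fell, and of Axin2, which did not pass, 5' to 3' on the strand of the gene. Capitals mark CTTTGA or its complement TCAAAG. The first Glul window is chr13:68519250-68519499 (plus strand) and the second chr13:68575816-68576065 (plus strand). The Cyp2e1 window is chr1:205269717-205269966 (plus strand), the Slc13a3 window chr3:174623894-174624143 (minus strand) and the Axin2 window chr10:94398535-94398784 (plus strand).
Glul, first window: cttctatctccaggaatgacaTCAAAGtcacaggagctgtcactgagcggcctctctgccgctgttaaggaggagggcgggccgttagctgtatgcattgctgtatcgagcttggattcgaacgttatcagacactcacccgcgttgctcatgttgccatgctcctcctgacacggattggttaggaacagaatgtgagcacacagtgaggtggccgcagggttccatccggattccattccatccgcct
Glul, second window: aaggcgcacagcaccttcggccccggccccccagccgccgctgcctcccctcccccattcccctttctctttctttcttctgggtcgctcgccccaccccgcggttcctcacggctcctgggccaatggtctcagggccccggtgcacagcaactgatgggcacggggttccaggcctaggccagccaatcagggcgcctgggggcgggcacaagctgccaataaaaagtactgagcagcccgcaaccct
Cyp2e1: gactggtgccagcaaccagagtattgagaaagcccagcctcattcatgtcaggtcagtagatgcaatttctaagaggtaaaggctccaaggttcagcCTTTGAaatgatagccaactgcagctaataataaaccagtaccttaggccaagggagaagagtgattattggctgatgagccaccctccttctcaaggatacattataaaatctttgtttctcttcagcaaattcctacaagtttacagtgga
Slc13a3: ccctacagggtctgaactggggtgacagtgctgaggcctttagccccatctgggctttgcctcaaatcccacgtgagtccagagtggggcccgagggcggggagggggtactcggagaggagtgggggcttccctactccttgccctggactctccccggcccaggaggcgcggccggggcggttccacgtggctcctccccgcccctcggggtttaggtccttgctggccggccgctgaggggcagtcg
Axin2: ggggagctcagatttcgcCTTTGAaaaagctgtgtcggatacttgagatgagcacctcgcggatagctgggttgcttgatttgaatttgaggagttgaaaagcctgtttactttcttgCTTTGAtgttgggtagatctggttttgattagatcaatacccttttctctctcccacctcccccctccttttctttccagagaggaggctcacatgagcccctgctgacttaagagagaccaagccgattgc
In the first Glul window the motif began 229 bases before the start, in Cyp2e1 153 bases, and in Axin2 232 and 132 bases. Thus a window with the motif belonged both to genes that fell and to Axin2, and Slc13a3, with the largest fall of the set, had no match in this window.

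Glul encodes glutamine synthetase, which joins ammonia to glutamate in the innermost pericentral hepatocytes. Its brightest probe set (1367632_at) read 11.83, 11.88, 11.88, 11.80 and 11.86 in vehicle arrays 1 to 5, and 10.64, 11.01, 11.34, 10.53 and 10.80 in dosed arrays 1 to 5. The vehicle values lay close together, each dosed array lay under all of them, and the dosed arrays were spread more widely. Vehicle arrays averaged 11.85 ± 0.03 (SD, n = 5) and dosed arrays 10.87 ± 0.32 (SD, n = 5), a difference of -0.98 ± 0.13 (SE, limma adjusted p = 0.000634), or 1.98-fold lower. The call held when any 1 array was left out (-1.10 to -0.90). Fitted with the GAPDH difference it was -0.85 ± 0.21 and did not pass (adjusted p = 0.0855).

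The other probe sets of Glul showed smaller differences. Probe set 1386870_at read 11.43, 11.40, 11.55, 11.24 and 11.67 in vehicle and 10.80, 10.88, 11.12, 11.12 and 10.84 in dosed arrays. Its groups did not overlap either, and it fell by 0.50 ± 0.10 (SE, adjusted p = 0.00831). Probe set 1367633_at read 10.19 to 10.86 in vehicle and 9.91 to 10.31 in dosed arrays, which overlap, and its difference of -0.38 ± 0.13 did not pass (adjusted p = 0.129). The difference of 1367632_at was larger than that of 1386870_at by 0.48 and than that of 1367633_at by 0.61 (differences of -0.48 and -0.61, exact permutation test of the within-array difference, two-sided, p = 0.0159 and 0.0238, or 0.0317 and 0.0397 adjusted over the 10 pairs of probe sets of 1 gene). All 3 probe sets were lower in the dosed mean, and how much lower depended on the probe set.

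Oat, ornithine aminotransferase, makes glutamate from ornithine and is pericentral in liver. It read 12.56, 12.06, 12.70, 12.49 and 12.50 in vehicle and 11.53, 12.39, 12.71, 11.98 and 12.21 in dosed arrays. The groups overlap, and dosed 3 was the highest of all 10 arrays. The difference was -0.30 ± 0.19 (SE, 95% interval -0.70 to 0.11, adjusted p = 0.51), so that a fall of up to 0.70 is within the interval.

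Slc1a2, the glutamate transporter GLT-1, is best known from astrocytes and is restricted to pericentral hepatocytes in liver. Its brighter probe set (1369693_a_at) read 6.27 to 6.66 in vehicle, with a median of 6.48, and 6.51 to 6.93 in dosed arrays, with a median of 6.71. The difference of 0.26 ± 0.10 (SE, 95% interval 0.04 to 0.48) did not pass (adjusted p = 0.214). The dimmer one (1369694_at), at percentile 8.94 of mean level among all probe sets, differed by -0.16 ± 0.08 (adjusted p = 0.348). The 2 probe sets thus had opposite signs, and their within-array difference itself differed between the groups (0.42, exact permutation p = 0.00794, the smallest possible, and 0.0198 adjusted over the 10 pairs). Beside them, the brain marker list had 4 of 5 genes measured and a summed level of 8.84 to 9.49 in vehicle and 8.08 to 8.96 in dosed arrays (log2 of the sum). Of these genes only Mbp was called (-0.91 ± 0.23, limma adjusted p = 0.0389), where 6.43% of all genes were. The others differed by 0.00 to 0.04, and the list median was 0.01. The part of brain markers in the Slc1a2 values was not tested.

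Slc13a3 encodes NaDC3, a sodium-coupled transporter that takes up succinate, alpha-ketoglutarate and other dicarboxylates. It had the largest difference of the set. Its 1 probe set read 9.65, 10.01, 10.01, 10.14 and 10.87 in vehicle and 8.30, 8.40, 8.68, 8.69 and 8.30 in dosed arrays. Every vehicle array was higher than every dosed array, and vehicle 5 was the highest of all. The averages were 10.14 ± 0.45 (SD, n = 5) and 8.47 ± 0.19 (SD, n = 5), so that Slc13a3 fell by 1.66 ± 0.18 on the log2 scale (SE, limma adjusted p = 0.000214), 3.17-fold. Without vehicle 5 the difference was -1.48 ± 0.12 (adjusted p = 2.75e-05), and with the GAPDH difference as a covariate -1.12 ± 0.23 (adjusted p = 0.0467). Slc13a3 is also a gene of kidney, and the kidney marker list, with 6 of 7 measured and 1 above the median level, summed to 8.32 to 8.57 in vehicle and 8.12 to 8.37 in dosed arrays (log2 of the sum). The 1 gene above the median level, Lrp2, an endocytic receptor of the proximal tubule, was lower (-0.37 ± 0.09, limma adjusted p = 0.031). The other measured genes of that list did not pass, with differences from -0.12 to 0.04, and the list median was -0.07. Of all genes 6.43% were called. The part of these markers in the Slc13a3 difference was not tested.

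Tbx3, a T-box transcription factor and a target of Wnt signalling in liver, was the member that rose. Its brightest probe set (1393160_at) read 6.69, 6.54, 6.41, 6.24 and 5.64 in vehicle and 7.11, 7.06, 7.45, 7.15 and 7.37 in dosed arrays. All dosed arrays were higher than every vehicle array, and vehicle 5 was the lowest. Vehicle arrays averaged 6.31 ± 0.41 (SD, n = 5) and dosed arrays 7.23 ± 0.17 (SD, n = 5), a rise of 0.92 ± 0.17 (SE, limma adjusted p = 0.00621), or 1.89-fold. Without vehicle 5 the rise was 0.75 ± 0.11 (adjusted p = 0.0013). Fitted with the GAPDH difference it was 0.34 ± 0.18 and did not pass (adjusted p = 0.415). This probe set is the brightest of Tbx3 only through its dosed values. In vehicle arrays 1390627_a_at averaged higher (6.52 against 6.31), and that probe set did not pass.

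The 3 other probe sets of Tbx3 differed less. Probe set 1381464_at, at percentile 20.1 of mean level, rose by 0.33 ± 0.08 (SE, adjusted p = 0.0242) from 4.24 to 4.56 in vehicle to 4.62 to 4.85 in dosed arrays. That call ended without vehicle 2 (adjusted p = 0.0535), vehicle 4 (0.0502), dosed 1 (0.0613), dosed 2 (0.0646), dosed 4 (0.0602) or dosed 5 (0.0644). Probe sets 1390627_a_at and 1377230_at differed by 0.22 ± 0.07 (adjusted p = 0.107) and 0.20 ± 0.09 (adjusted p = 0.314), with overlapping groups. The difference of 1393160_at exceeded those of the other 3 by 0.59 to 0.72 (0.59, 0.70 and 0.72, exact permutation p = 0.00794 for each, the smallest possible, and 0.0198 adjusted over the 10 pairs). All 4 probe sets had a higher dosed mean, and the size of the rise rests on the probe set.

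Lgr5 is a receptor for R-spondins and marks the hepatocytes closest to the central vein. Its 1 probe set was dim, at percentile 8.45 of mean level, and read 4.11, 4.27, 4.08, 4.08 and 4.01 in vehicle and 4.08, 3.93, 3.85, 4.09 and 3.82 in dosed arrays. The groups overlap, and the difference was -0.16 ± 0.08 (SE, 95% interval -0.32 to 0.01, adjusted p = 0.342). No difference was detectable at this signal, which is not to say that there was none.

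Axin2, a scaffold of the complex that breaks down beta-catenin, is induced by Wnt signalling as a feedback inhibitor and is widely used as its readout. It read 7.46, 7.22, 7.50, 7.17 and 7.61 in vehicle and 7.28, 7.40, 7.55, 7.26 and 7.34 in dosed arrays. All 5 dosed arrays lay within the range of the vehicle arrays. The difference was -0.03 ± 0.09 (SE, 95% interval -0.23 to 0.18, adjusted p = 0.94), an interval that does not reach the differences of Glul and Slc13a3. Its sign depended on the setting: without vehicle 5 it was 0.03.

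Cyp2e1, a cytochrome P450 that oxidises ethanol and small solvents, read 14.41, 14.35, 14.34, 14.31 and 14.32 in vehicle and 14.11, 14.01, 14.07, 13.99 and 13.89 in dosed arrays. The groups were narrow and did not overlap. It fell by 0.33 ± 0.06 (SE, limma adjusted p = 0.00689), 1.26-fold, and with the GAPDH difference as a covariate the size was -0.36 ± 0.10 (adjusted p = 0.123). Fitted with the beta-actin measure it was -0.32 ± 0.08 and did not pass either (adjusted p = 0.0676). The probe set lay at percentile 99.9 of mean level, the highest of the members.

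Rgn, regucalcin, is a gluconolactonase of ascorbate synthesis and binds calcium. It read 12.78, 12.88, 12.77, 12.91 and 12.64 in vehicle and 11.71, 12.13, 12.65, 12.28 and 12.37 in dosed arrays. Dosed 3 just exceeded vehicle 5, and the other 4 dosed arrays lay under all vehicle arrays. It fell by 0.57 ± 0.14 (SE, limma adjusted p = 0.0342), 1.48-fold. This call ended without vehicle 1 (adjusted p = 0.0704), vehicle 2 (0.0758), vehicle 3 (0.0704), vehicle 4 (0.0801), dosed 2 (0.0867), dosed 4 (0.0666) or dosed 5 (0.052), while the difference stayed between -0.67 and -0.44 under all 10 omissions. Neither covariate fit passed, at -0.69 ± 0.23 (adjusted p = 0.199) with GAPDH and -0.55 ± 0.18 (adjusted p = 0.175) with beta-actin.

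**Figure D2:**
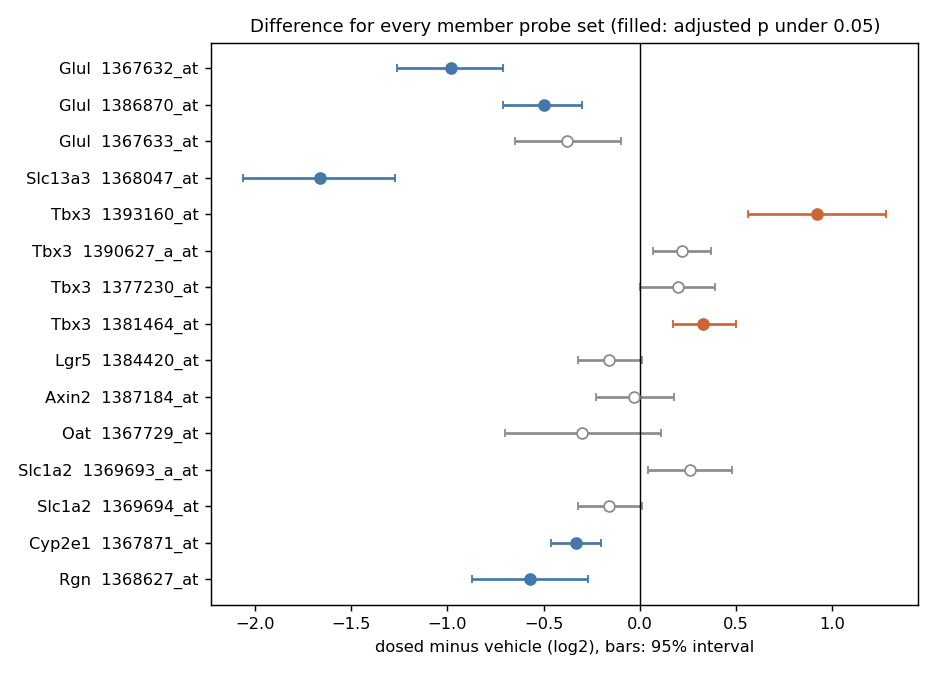
Difference between dosed and vehicle arrays (x axis, log2) for each of the 15 member probe sets, with the 95% interval from limma, n = 5 per group. Filled points have an adjusted p under 0.05. They are 2 probe sets of Glul and those of Slc13a3, Cyp2e1 and Rgn, which were lower, and 2 of Tbx3, which were higher.

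The dosed arrays differed among themselves. At the brightest probe sets dosed 3 had the highest level of its group for 5 of the 9 genes (Glul, Tbx3, Axin2, Oat and Rgn) and the lowest for 0. At other probe sets the order changed. At Tbx3 1381464_at dosed 3 was the lowest dosed array (4.62), and at Glul 1367633_at dosed 4 (10.31) exceeded dosed 3 (10.23). Dosed 1 had the lowest level for 3 (Slc13a3, Oat and Rgn). Without dosed 3 the difference of Glul was -1.10, that of Rgn -0.67 and that of Oat -0.43, the last still not passing (adjusted p from 0.227 upward over all omissions). Vehicle 5 was the highest vehicle array for Slc13a3 and Axin2 and the lowest for Tbx3 (at its brightest probe set), Lgr5 and Rgn.

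The rest of the Wnt pathway is described through a list of 52 genes, of which 45 were measured. Of these 3 fell and 1 rose, and the others did not pass. Of all genes 3.11% fell and 3.32% rose, 6.43% in all, and the count is not read as a result about the pathway. The median difference was -0.02 beside 0.00 over all genes. Ccnd1, cyclin D1, which drives entry into the cell cycle and is a target of beta-catenin among other factors, had the largest difference. It read 10.15, 9.99, 10.40, 10.52 and 9.75 in vehicle and 8.33, 9.18, 9.38, 7.90 and 8.50 in dosed arrays, which do not overlap. It fell by 1.50 ± 0.25 (SE, limma adjusted p = 0.00376), 2.84-fold, and its other probe sets fell by 1.39 ± 0.21 and 1.40 ± 0.16. Fitted with the GAPDH difference the brightest probe set was at -1.41 ± 0.43 and did not pass (adjusted p = 0.159).
Fzd8, a Wnt receptor, fell by 0.58 ± 0.12 (adjusted p = 0.0116), and Tcf7, a nuclear factor of the pathway, fell by 0.58 ± 0.13 (adjusted p = 0.0214), a call that ended without dosed 1 (0.0524) or dosed 4 (0.0597). Btrc, part of the ubiquitin ligase that marks beta-catenin for breakdown, rose by 0.25 ± 0.06 (adjusted p = 0.0426). Its other probe sets differed by -0.05 and -0.10, and its call ended without any 1 of 8 arrays (vehicle 1, 2 or 3 or any dosed array, adjusted p up to 0.114). Ctnnb1, beta-catenin itself, differed by -0.10 ± 0.14 (adjusted p = 0.837) at its brightest of 4 probe sets, and Lgr4, the broadly expressed R-spondin receptor, by 0.15 ± 0.08 (adjusted p = 0.4). Without vehicle 5 the list had 5 lower genes, and in the fit with the GAPDH difference limma called 0 of it in either direction (7 lower and 5 higher at an unadjusted p under 0.05).

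Of 25 other pericentral genes listed 24 were measured, of which 10 rose and 4 fell, beside 3.32% and 3.11% of all genes, and the median difference was 0.08. Nr1i3, the nuclear receptor CAR, rose by 1.32 ± 0.20 (SE, limma adjusted p = 0.00181), and Por, the electron donor of microsomal P450 enzymes, by 1.32 ± 0.12. The glutathione transferase Gstm3 rose by 1.20 ± 0.18 and Cyp1a2, a target of the aryl hydrocarbon receptor, by 1.11 ± 0.11 (adjusted p = 7.88e-05). The 4 that fell, named after their values were seen, were Ang and Rnase4, neighbouring ribonucleases (-0.57 ± 0.09 and -0.40 ± 0.07), Alad of heme synthesis (-0.33 ± 0.08) and Cldn2, a tight junction protein (-0.33 ± 0.09). The call of Cldn2 ended without vehicle 2, 4 or 5 or any dosed array (adjusted p up to 0.111) and that of Alad without vehicle 1 or 3 or dosed 1, 2 or 4 (up to 0.0636), and 2 genes of the list were lower without dosed 1, dosed 2 or dosed 4. Fitted with the GAPDH difference 4 were higher and limma called 0 lower (4 at an unadjusted p under 0.05), so that the calls of Ang (adjusted p = 0.0605), Rnase4 (0.152), Alad (0.183) and Cldn2 (0.529) ended. In that fit Nr1i3 was at 1.18 ± 0.33 (adjusted p = 0.13) and Gstm3 at 1.24 ± 0.30 (adjusted p = 0.0861), while Por and Cyp1a2 passed.

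Of 29 listed periportal genes 27 were measured, of which 6 fell, 1 rose and the others did not pass, beside 3.11% lower and 3.32% higher among all genes. Their median difference was -0.19. Gls2, the liver glutaminase, which releases ammonia from glutamine at the portal side, read 11.18, 10.99, 10.99, 11.02 and 10.81 in vehicle and 9.81, 10.24, 10.31, 10.26 and 10.03 in dosed arrays. The groups do not overlap, and Gls2 fell by 0.87 ± 0.10 (SE, limma adjusted p = 0.000336), so that both glutamine synthetase and liver glutaminase were lower in the dosed livers. Cps1, the first enzyme of the urea cycle, was at -0.17 ± 0.07, which did not pass (adjusted p = 0.226). Hal and Uroc1 of histidine breakdown fell by 1.10 ± 0.24 and 0.80 ± 0.08, and the tyrosine-degrading enzyme Tat rose by 0.93 ± 0.16. Leaving out vehicle 1 or vehicle 3 ended the call of Hal (adjusted p = 0.0547 and 0.0517). Fitted with the GAPDH difference 2 periportal genes were lower, Gls2 (adjusted p = 0.014) and Uroc1 (adjusted p = 0.00728), and Hal (-1.06 ± 0.41, adjusted p = 0.266) and Tat (0.53 ± 0.24, adjusted p = 0.324) did not pass.

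Some of the 37 listed genes that make, carry or use glutamine and glutamate, Gls2 and Cps1 among them, are also on the periportal list. Of the 37, 33 were measured. Of these 5 rose and 4 fell, beside 3.32% and 3.11% of all genes, and the median was 0.02. Asns, which uses glutamine to make asparagine, rose by 3.67 ± 0.22 (SE, limma adjusted p = 1.2e-06). Slc3a2, the heavy chain of amino acid exchangers, rose by 1.40 ± 0.13, and Slc1a4, a carrier of small neutral amino acids, by 1.03 ± 0.18. Besides Gls2, the enzymes that fell were Gpt2 (-0.69 ± 0.11) and Got2 (-0.37 ± 0.06), aminotransferases that exchange glutamate and alpha-ketoglutarate, and Glud1, glutamate dehydrogenase (-0.44 ± 0.06), these 3 named after their values were seen. Without vehicle 5 the list had 7 lower genes. Fitted with the GAPDH difference 2 were higher and 3 lower, and Slc1a4 was at 0.88 ± 0.30 (adjusted p = 0.203). Gls2 (adjusted p = 0.014) and Gpt2 (0.00697) were still lower in that fit. Glud1 (0.0921) and Got2 (0.177) did not pass, and the remaining lower gene is not among those that fell in the reported fit.

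Of 16 genes of sodium-coupled carboxylate transport and ascorbate synthesis, all measured, 1 fell and the others did not pass, a share near the 6.43% of all genes called, with a median of 0.01. The one that fell was Slc13a4, a sodium-coupled sulfate carrier of the same family as Slc13a3, which read 9.21 to 9.77 in vehicle, with a median of 9.61, and 7.66 to 8.58 in dosed arrays, with a median of 8.40. The groups do not overlap, and Slc13a4 fell by 1.36 ± 0.16 (SE, limma adjusted p = 0.000423), 2.56-fold. Without vehicle 5, 1 gene of the list was higher.

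**Figure D3:**
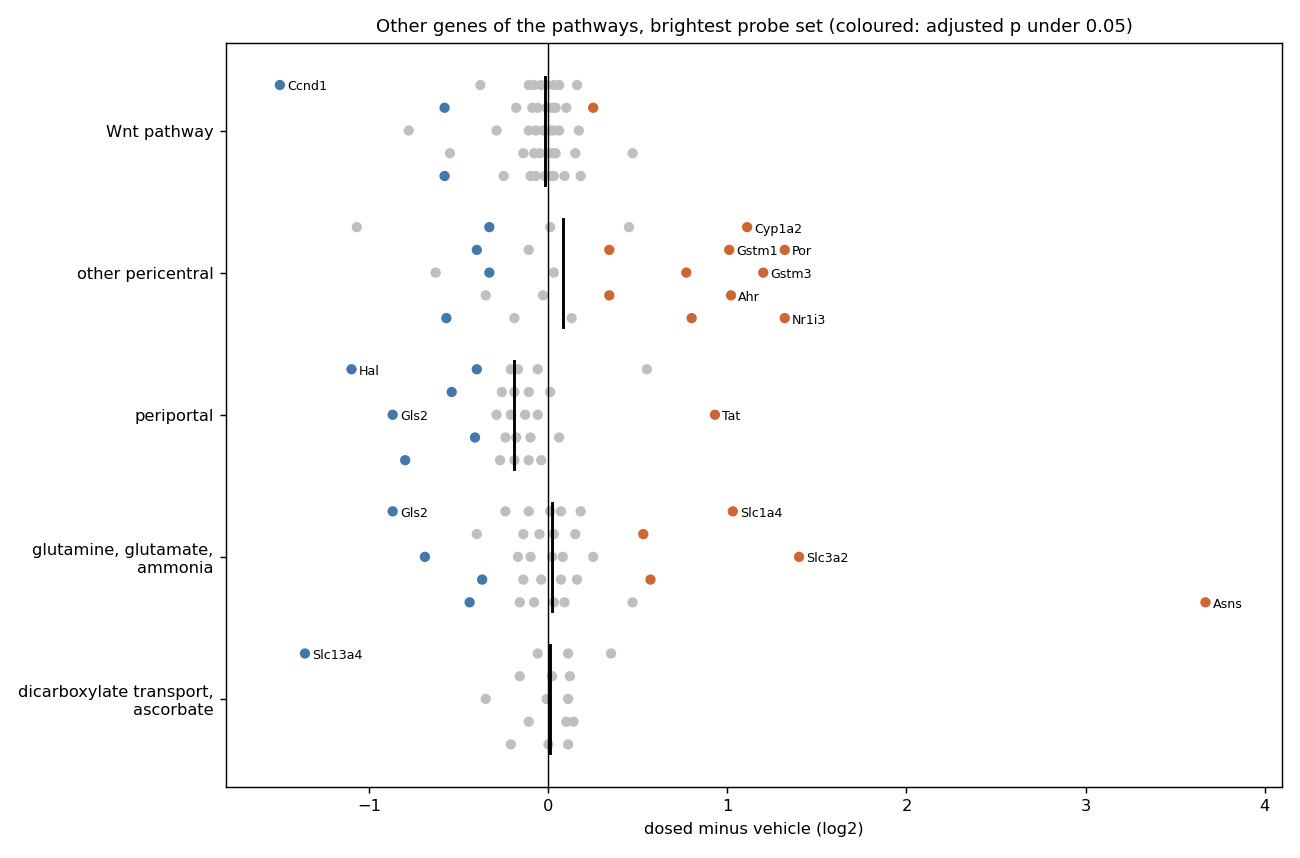
Difference between dosed and vehicle arrays (x axis, log2) of the measured genes of 5 lists, through each gene's brightest probe set. Coloured points have an adjusted p under 0.05, the black bar is the median of a list, the vertical spread has no meaning, and genes with a called difference beyond 0.85 are named. Most genes of the Wnt list lie near 0 while Ccnd1 is 1.50 lower.

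**Figure D4:**
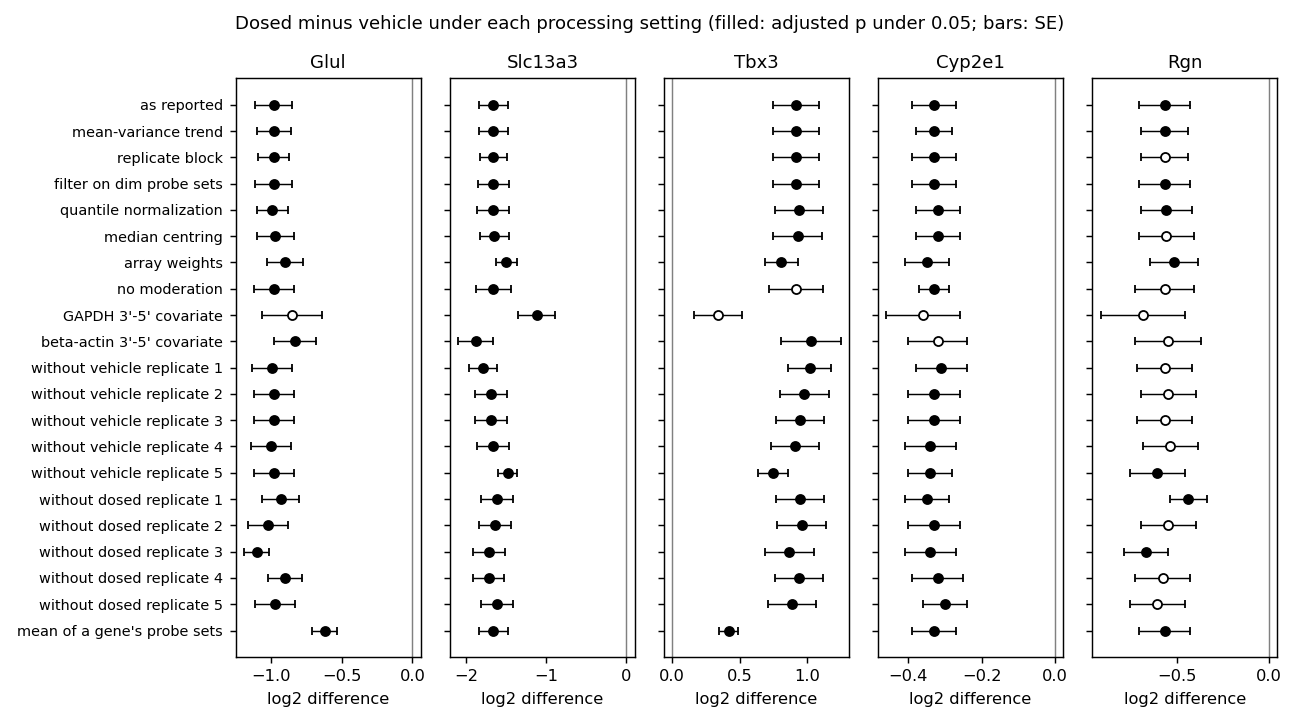
Difference between dosed and vehicle arrays (x axis, log2, bar ± SE) of the 5 called members under the reported fit and 20 other settings. Filled points have an adjusted p under 0.05. Slc13a3 is filled throughout, Glul in all settings but that with the GAPDH covariate, and Rgn is open in 12 of the 20.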

How the data were processed

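Per the submitters' processing notes the authors made the deposited log2 values with RMA. No source used here names its software or version. RMA normalises arrays to a common distribution, which removes shifts shared by all genes, and compresses large folds. Of 31042 probe sets outside 57 controls, 20826 carry 1 gene, named through the platform annotation of 2016 and a RefSeq table on GRCr8 used for names and promoter windows. Each probe set's group difference was tested two-sided in limma 3.58.1 (R 4.3.3), unfiltered and without a trend, with 4.60 prior degrees of freedom. Labels name no animals, so p-values cover only the spread between these arrays, which may be technical. On simulated arrays the fit over 31042 probe sets recovered 82.1% of 67 probe sets changed 1.5-fold and 98.5% of 67 changed 2-fold, with 7 false calls. Simulated noise was independent and normal, with the same SD in both groups. The simulation thus lacks the outlying vehicle 5, the unequal spread of some genes and the RNA quality difference. Members and lists were chosen with earlier results of these data known. By rule, the other genes named are the 4 largest called differences of each list, or the 2 brightest where none passed, plus Gls2, Cps1, Lgr4 and Ctnnb1. Outside the rule, after their values were seen, Ang, Rnase4, Alad, Cldn2, Gpt2, Got2, Glud1, Lrp2, Rgs5, Lrat, C1qa, Cpa1 and Mbp are named. Alternatives were other variance models, normalisations, a filter, array weights, RNA quality covariates, gene means, the replicate block and leaving out each array.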

Additional observations from a re-analysis of the deposited data

Results flagged for a closer look

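In 72 groups of 5 arrays, from the member probe sets, the named list genes and the RNA quality measures, 3 had an array far from the other 4 by Dixon's criterion, where chance flags about 1 in 20 groups. For Tbx3 at probe set 1381464_at dosed 3 read 4.62 while the other dosed arrays read 4.82 to 4.85, and at probe set 1390627_a_at dosed 2 read 6.57 beside 6.75 to 6.81. For Hal dosed 1 read 9.85, and its gap to the next array was 0.71 of the range of the dosed group, whose highest array read 11.46.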

How the results depend on the processing

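Slc13a3 was called lower under all 20 alternatives (-1.88 to -1.12). Glul (-1.10 to -0.62) lost its call with the GAPDH covariate, Tbx3 (0.34 to 1.03) with that covariate and without moderation of the variance, Cyp2e1 (-0.36 to -0.30) with either RNA quality covariate, and Rgn (-0.69 to -0.44) under 12 of 20, among them the replicate block. Oat, Slc1a2, Lgr5 and Axin2 passed under no alternative run. The sign of Axin2 turned with array weights (0.03), with the GAPDH covariate (0.20) and without vehicle 5 (0.03), and over the arrays left out it ran from -0.08 to 0.03. The causes were not tested. The filter on dim probe sets left no value for Lgr5. The replicate numbers showed no clear pairing of the arrays, and same-numbered arrays deviated together at r from -0.278 to 0.222. Of the vehicle arrays only 2 and 3 deviated most with the dosed array of their own number. With 5 arrays in a group this check cannot exclude a pairing. With the replicate block 1 member probe set was higher in place of 2, and the Wnt list had 1 lower and 0 higher genes (2 higher at an unadjusted p under 0.05, limma).

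With the GAPDH covariate 1 member gene and 1 member probe set were lower and 0 higher (0 and 1 at an unadjusted p under 0.05, limma). The Wnt list then had 0 lower and 0 higher (7 and 5 unadjusted), the other pericentral list 0 lower and 4 higher (4 lower unadjusted), the periportal list 2 lower and 0 higher (1 higher unadjusted), and the glutamine list 2 higher. With the beta-actin covariate 2 member genes were lower and 1 member probe set higher, the Wnt list had 0 higher (2 unadjusted), the other pericentral list 2 lower, and the periportal list 2 lower and 0 higher (1 unadjusted). Without moderation 0 member genes and 0 member probe sets were higher (2 and 4 unadjusted), the Wnt list had 1 lower and the other pericentral list 2 lower. With the dim filter 1 member probe set was higher. The higher count of the Wnt list was 0 with a mean-variance trend, median centring or probe sets averaged by gene (1, 2 and 0 unadjusted), and array weights gave 1 higher gene in the carboxylate and ascorbate list.

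With 1 array left out, 3 to 4 member genes were lower and 1 higher, and 4 to 5 member probe sets were lower and 1 to 2 higher. The Wnt list had 2 to 5 lower and 0 to 1 higher, the other pericentral list 2 to 4 lower and 9 to 11 higher, the periportal list 4 to 7 lower and 1 higher, the glutamine list 4 to 7 lower and 5 higher, and the carboxylate and ascorbate list 1 lower and 0 to 1 higher. Median centring moved no member by more than 0.02. The low level of the probe set limits what can be read for Lgr5 and for the dimmer probe sets of Slc1a2 and Tbx3.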

Other observations

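Markers of other cell types were read through their brightest probe sets, and those named here were chosen after their values were seen. Rgs5, a marker of pericytes and stellate cells, rose by 1.33 ± 0.18 (limma adjusted p = 0.000865), while Lrat, which esterifies retinol in stellate cells, fell by 0.51 ± 0.10. Of 7 stellate markers measured these 2 were called. Beside this and each count below stands the 6.43% of all genes called in either direction. Of 5 Kupffer cell markers measured 1 was called, C1qa, a complement component (-0.37 ± 0.08). All 5 had a lower dosed mean, with a median difference of -0.35. Their summed level did not overlap between the groups (12.49 to 12.75 in vehicle and 11.99 to 12.40 in dosed arrays, log2 of the sum), which was so for 8.67% of all single genes. Of 7 pancreas markers measured 1 was called, Cpa1, a pancreatic carboxypeptidase (-2.10 ± 0.28), and the summed level was 11.26 to 12.07 in vehicle and 9.92 to 10.66 in dosed arrays. In vehicle arrays Cpa1 averaged 11.54 and no other marker of the list above 7.33, so the sum mainly reflects Cpa1. The other pancreas markers did not pass, with differences from -0.30 to 0.49, and the list median was -0.05. Of 4 brain markers measured 1 was called, Mbp, myelin basic protein (-0.91 ± 0.23). The endothelial list, whose cells release Wnt ligands at the central vein, summed to 12.16 to 12.38 in vehicle and 12.08 to 12.25 in dosed arrays, and limma called 0 of its 6 measured genes.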
